A study of Homo sapiens with 95 samples.

Results

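The 10 genes described here are TMSB10 and TMSB4X, TAGLN and TAGLN2, TPM1, TPM2 and TPM4, MYL9, and ACTB and ACTG1. They were chosen by symbol, for their place in the actin cytoskeleton, from the 23895 genes that every well lists. All 10 are listed. Levels are given as CPM, a gene's count in a well for every 1000000 counts of that well.

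TMSB10 and TMSB4X code for beta-thymosins, small proteins that bind monomeric actin and hold it in a reserve from which filaments are built. ACTB and ACTG1 code for the cytoplasmic beta- and gamma-actins that form the filaments, TPM1, TPM2 and TPM4 for tropomyosins that lie along them and govern which myosins and severing proteins gain access, TAGLN and TAGLN2 for transgelins that cross-link them, and MYL9 for a regulatory light chain of myosin II. TAGLN, MYL9, TPM2 and TPM1 are abundant in smooth muscle and in contractile fibroblasts, while epithelial cells carry the cytoplasmic actins, the thymosins and TAGLN2. Many cytoskeletal genes are controlled by serum response factor, which binds a short DNA element named the CArG box, together with cofactors that are themselves held back by free actin monomers.

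RNA was counted at its 3′ end by 3′ digital gene expression, with a unique molecular identifier (UMI) on each captured molecule, in 95 wells of AALE, an immortalized line of human bronchial epithelial cells. The wells covered 8 populations under 4 chemicals. In 4 populations NRF2 (gene NFE2L2), FGFR1, NRG1 or PIK3CA was overexpressed, and their control, HcRed, carried the empty vector with a fluorescent reporter. In the other 2 engineered populations FAT1 or CDKN2A was targeted by CRISPR, and their control, GFP, received the plasmid for Cas9 and EGFP with no guide. The chemicals were DMSO, which was the vehicle, a condensate of cigarette smoke (CSC, 24 µg/ml), the polycyclic hydrocarbon benzo[a]pyrene (BaP, 173 µM) and NNK (490 µM), a nitrosamine of tobacco. All populations share the immortalizing background of the line, and the labels do not say whether a population was a clone or a pool. Each construct is represented by 1 population, so the wells repeat the exposure and not the construct, and a p-value measures the spread between wells.

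The comparisons below used the 82 wells whose replicate number has 1 digit. They held 692446 to 1895735 counts, and the median was 1426280 in the 24 DMSO wells, 1318389 under CSC, 1255412 under BaP and 1171386 under NNK. By the well positions in the labels, each chemical filled a pair of plate rows and a population sat in the same columns and the same row of the pair each time, so position cannot be told apart from chemical or population. NRG1 NNK replicate 2 stood apart from its group, with a chi-square per degree of freedom of 11.3 and 11.8 against the other wells of the group, where 74 other pairs gave 1.13 to 2.89. FGFR1 DMSO replicate 3, at 2.30 and 2.62, and CDKN2A DMSO replicate 2, at 2.76 and 2.89, lay toward the top of that range. The targeted gene followed the label under DMSO, at 152 against 44.8 CPM for NFE2L2, 22.9 against 4.05 for FGFR1, 108 against 0.258 for NRG1, 11.9 against 2.17 for PIK3CA and 1.90 against 8.35 for FAT1. CDKN2A was at 21.4 against 36.7 CPM, so its transcript was reduced and not lost. All 14 epithelial markers were detected, with a summed level of 888 to 2046 CPM over the wells, and of 8 smooth muscle markers DES and MYOCD were at 0, with a summed level of at most 8.14 CPM. The epithelial list held basal markers, such as KRT5 and TP63. It also held genes that are not particular to basal cells, among them KRT8, KRT18, KRT19, EPCAM and CDH1.

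On hg19 the thymosin genes lie at chr2:85132780-85133795 (TMSB10) and chrX:12993229-12995346 (TMSB4X), both on the plus strand. The transgelin genes lie at chr11:117070086-117078180 (TAGLN, plus) and chr1:159887897-159895297 (TAGLN2, minus). The tropomyosin genes lie at chr15:63334819-63364114 (TPM1, plus), chr9:35681989-35690053 (TPM2, minus) and chr19:16177831-16213812 (TPM4, plus). MYL9 lies at chr20:35169900-35179850 (plus), ACTB at chr7:5566040-5603533 (minus) and ACTG1 at chr17:79476439-79490873 (minus). Exons of TMSB10, TAGLN and TPM1 overlap exons of TRABD2A, PCSK7 and TPM1-AS on the opposite strand, as do exons of TPM1, TPM4 and ACTG1 with genes that have no symbol. On the same strand, exons of ACTB and ACTG1 overlap those of AC006483.1 and AC139149.1, and those of TAGLN overlap a gene with no symbol, so how counts were shared there is uncertain. Beta- and gamma-actin are almost the same protein, but the ends of their transcripts, where the counts were taken, differ.

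RefSeq promoters on GRCh38.p14, from 250 bases before to 50 after the start, were found for 7 of the 10 genes with 12 start sites in all. The CArG box, searched on both strands, occurred at 1 of the 3 start sites of TPM4 and at the start site of ACTG1, and in 1.29% of the 35116 promoters in the table. TMSB10, TMSB4X, TAGLN2, TPM1 and TPM2 held none in these windows, which says nothing of the rest of the gene, and TAGLN, MYL9 and ACTB were not searched. The 250 bases before both start sites are shown because they hold the element that the actin cytoskeleton genes are best known for, with the box in capitals. The box begins at -173 in TPM4 and at -94 in ACTG1, counted from the start. TPM4 is at chr19:16067288-16067537 on the plus strand and ACTG1 at chr17:81512800-81513049 on the minus strand.
TPM4: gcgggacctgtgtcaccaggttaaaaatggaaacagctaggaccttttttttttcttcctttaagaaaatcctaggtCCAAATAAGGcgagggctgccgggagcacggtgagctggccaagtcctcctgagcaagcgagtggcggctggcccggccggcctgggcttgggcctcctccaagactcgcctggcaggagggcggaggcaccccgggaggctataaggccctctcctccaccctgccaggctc
ACTG1: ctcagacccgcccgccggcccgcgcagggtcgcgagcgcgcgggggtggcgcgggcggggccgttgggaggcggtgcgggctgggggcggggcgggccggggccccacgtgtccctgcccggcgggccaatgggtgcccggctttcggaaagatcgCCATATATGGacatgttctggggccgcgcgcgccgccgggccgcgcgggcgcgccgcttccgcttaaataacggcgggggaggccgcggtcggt

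Together the 10 genes took a median of 2.04% of all counts in a well, from 1.44% to 2.28%. TMSB10 alone took a median of 1.58% and stood at place 3 among the 23895 genes by level. TMSB4X was at place 71, ACTB at 196, ACTG1 at 526 and TAGLN2 at 985. The tropomyosins were lower, with TPM4 at place 1991, TPM1 at 3469 and TPM2 at 3926. TAGLN had 38 counts in the 82 wells and was at 0 in 54 of them, and MYL9 had 13 counts and was at 0 in 71. Since 1 UMI is counted per captured 3′ end, these places are on a per-transcript scale, apart from differences in capture.

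In all, 10 comparisons were made, 7 between populations under DMSO with 3 wells each and 3 between a chemical and DMSO fitted over several populations. Genes with a mean count above 1 were tested with limma, and a gene was called at an adjusted p under 0.05 over all genes tested. TAGLN passed the filter only in NRF2 against HcRed cells and MYL9 in none, so 8 members were tested throughout.

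In FAT1 against GFP cells 6 of the 8 tested members were called, where 14.1% of all tested genes were, and 5 of the 6 fell, as did 7.62% of all genes, while 1 rose, as did 6.49%. In CDKN2A against GFP cells 6 of 8 were called against 17.9% of all genes, 3 higher (8.6% of all genes) and 3 lower (9.28%). In GFP against HcRed cells, both of them controls, 5 of 8 were called against 10.8%, 2 higher (5.93%) and 3 lower (4.86%). In NRF2 cells 4 of 9 tested members were called against 4.92% of all genes, 1 higher (3.39%) and 3 lower (1.53%). In NRG1 cells 4 of 8 were called against 3.1%, 3 higher (2.1%) and 1 lower (0.998%), and in PIK3CA cells 4 of 8 against 5.37%, 3 higher (3.4%) and 1 lower (1.97%). In FGFR1 cells 0 of 8 were called against 0.905%. In that comparison 1 member had an unadjusted p under 0.05 with limma, edgeR called 1 and DESeq2 called 0. CSC called 6 of 8 members against 5.82% of all genes, 1 higher (2.95%) and 5 lower (2.87%). BaP called 1 of 8 against 9.11%, lower as were 4.43% of all genes, and NNK called 2 of 8 against 7.22%, both lower as were 4.16%.

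Highly counted genes are called more often. Among genes with a mean count of at least 20 the shares called were 12.1% in NRF2, 7.27% in NRG1, 12.3% in PIK3CA, 29.5% in FAT1 and 34.6% in CDKN2A cells, 24.3% between the controls, and 12.2% for CSC, 20.1% for BaP and 14% for NNK. The members' median log2 fold change was -0.35 in FAT1 cells, where that of all tested genes was -0.01, and -0.11 under CSC, where that of all tested genes was -0.000829. It was 0.07 in CDKN2A cells and 0.01 in GFP against HcRed cells, since members moved in both directions. The comparisons with HcRed share the HcRed wells, those with GFP share the GFP wells, and the chemicals share the DMSO wells.

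**Figure D1:**
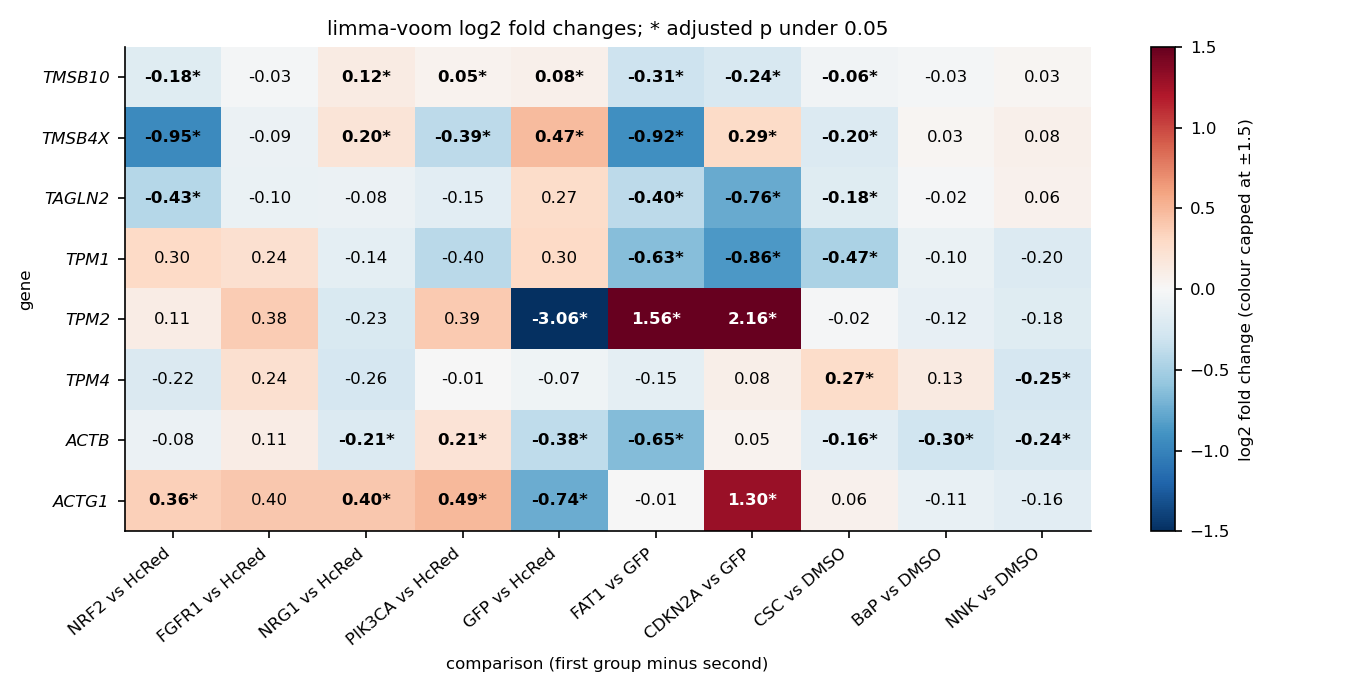
Log2 fold changes from limma for the 8 tested members (rows) in the 10 comparisons (columns), with colour from blue (lower) to red (higher), limited at 1.5 in either direction, and an asterisk where the adjusted p is under 0.05. TMSB4X has the largest asterisked decreases in NRF2 and FAT1 cells, ACTB is blue under each of the 3 chemicals, and TPM2 runs from -3.06 in GFP against HcRed cells to 2.16 in CDKN2A against GFP cells.

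Among the members, TMSB4X, the thymosin of most tissues, separated the populations most cleanly. Under DMSO its levels in replicates 1 to 3 were 5570, 5148 and 5675 CPM in CDKN2A cells, and 4289, 4033 and 4096 CPM in GFP cells. They were 3356, 3367 and 3331 CPM in NRG1 cells, 3000, 3063 and 3199 CPM in HcRed cells and 2990, 2972 and 2822 CPM in FGFR1 cells. They were 2298, 2353 and 2105 CPM in PIK3CA cells, 2083, 2069 and 2163 CPM in FAT1 cells and 1519, 1495 and 1473 CPM in NRF2 cells. The wells kept this order of populations with a single overlap, between PIK3CA and FAT1 cells, and the highest mean was 3.65 times the lowest. How many of all genes kept the populations apart in this way was not counted, and TMSB4X is highly counted, at place 71.

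Against HcRed cells, TMSB4X fell in NRF2 cells, where the log2 fold change was -0.95 (SE 0.034, limma adjusted p = 9.74e-37), and in PIK3CA cells with one of -0.39 (SE 0.036, adjusted p = 5.17e-14), and rose in NRG1 cells with one of 0.20 (SE 0.025, adjusted p = 3.01e-09). Against GFP cells it fell in FAT1 cells with a log2 fold change of -0.92 (SE 0.034, limma adjusted p = 4.07e-42) and rose in CDKN2A cells with one of 0.29 (SE 0.073, adjusted p = 0.00192). Between the controls it was higher in GFP cells by 0.47 on the log2 scale (SE 0.026, adjusted p = 1.59e-19), so the level in FAT1 cells lies below that of both controls and the level in CDKN2A cells above both. The call in CDKN2A cells was lost without GFP DMSO replicate 3 (adjusted p = 0.0512) and with DESeq2 (0.0615). The call in NRG1 cells, as those of TMSB10, ACTB and ACTG1 there, was lost in a single fit over all groups, where 0 members were called. Under NNK the NRG1 mean was 1.01 times that of HcRed cells and the wells overlapped, and a fit over all chemicals gave 0.04 (adjusted p = 0.983).

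The lower TMSB4X of NRF2 and FAT1 cells was seen under each chemical compared. The ratio of mean CPM was 0.484 to 0.548 for NRF2 over HcRed cells under DMSO, CSC and NNK, and 0.491 to 0.509 for FAT1 over GFP cells under all 4 chemicals. In each of these 7 settings every well of the engineered population lay below every control well. Of all tested genes, 1.83% were lower in NRF2 cells without overlap under all 3 chemicals and 5.89% were lower in FAT1 cells without overlap under all 4. PIK3CA cells were at 0.728 to 0.815 of HcRed cells, again with no overlap under any of 3 chemicals, which held for 2.3% of all tested genes.

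TMSB10, the thymosin with the higher count, varied less between populations. Under DMSO its 3 wells were at 17047, 17042 and 17066 CPM in NRG1 cells, 16838, 16942 and 16910 CPM in GFP cells, 16602, 16342 and 16808 CPM in HcRed cells, and 15442, 15468 and 15301 CPM in CDKN2A cells. They were at 13446, 13677 and 13822 CPM in NRF2 cells and 12225, 13548 and 13597 CPM in FAT1 cells, which overlapped each other and lay below every other population. PIK3CA and FGFR1 cells were at 16173 to 16569 and 16176 to 16498 CPM, within or next to the HcRed range. The highest mean was 1.30 times the lowest.

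TMSB10 fell in NRF2 cells with a log2 fold change of -0.18 (SE 0.012, limma adjusted p = 1.80e-20), in FAT1 cells with one of -0.31 (SE 0.019, adjusted p = 4.93e-26) and in CDKN2A cells with one of -0.24 (SE 0.056, adjusted p = 0.00046). It was 0.806 to 0.834 of HcRed cells in NRF2 cells and 0.725 to 0.789 of GFP cells in FAT1 cells under every chemical compared, with no overlap of wells. The calls for a higher level in NRG1 cells (0.12, SE 0.0089, adjusted p = 2.82e-19), GFP against HcRed cells (0.08, SE 0.0088, adjusted p = 1.97e-09) and PIK3CA cells (0.05, SE 0.014, adjusted p = 0.014) rest on differences of a few percent. In PIK3CA cells the mean CPM was below that of HcRed cells, at 16393 against 16584, so the higher value there came with the scaling used in the fit. The PIK3CA value turned to -0.01 with scaling to library totals, and its call was lost without HcRed DMSO replicate 1 (adjusted p = 0.0824) or 2 (0.477) or PIK3CA DMSO replicate 1 (0.123). The calls in GFP against HcRed cells and in PIK3CA cells were lost with edgeR and with DESeq2. The CDKN2A call was lost without GFP DMSO replicate 1 (adjusted p = 0.0636) and with edgeR (0.0685), and the FGFR1 value, uncalled at -0.03, was called at 0.02 without FGFR1 DMSO replicate 3 (adjusted p = 0.00724).

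Because both thymosins were counted in the same wells, their ratio needs no scaling between wells. TMSB10 was 2.83 ± 0.16 times TMSB4X in CDKN2A cells under DMSO (SD, n = 3), 4.09 ± 0.14 in GFP cells, 5.09 ± 0.03 in NRG1 cells and 5.38 ± 0.14 in HcRed cells. It was 5.58 ± 0.14 in FGFR1 cells, 6.23 ± 0.34 in FAT1 cells, 7.29 ± 0.36 in PIK3CA cells and, highest, 9.13 ± 0.27 in NRF2 cells. The thymosin counts of NRF2 cells were therefore shifted furthest toward TMSB10 and those of CDKN2A cells furthest toward TMSB4X.

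**Figure D2:**
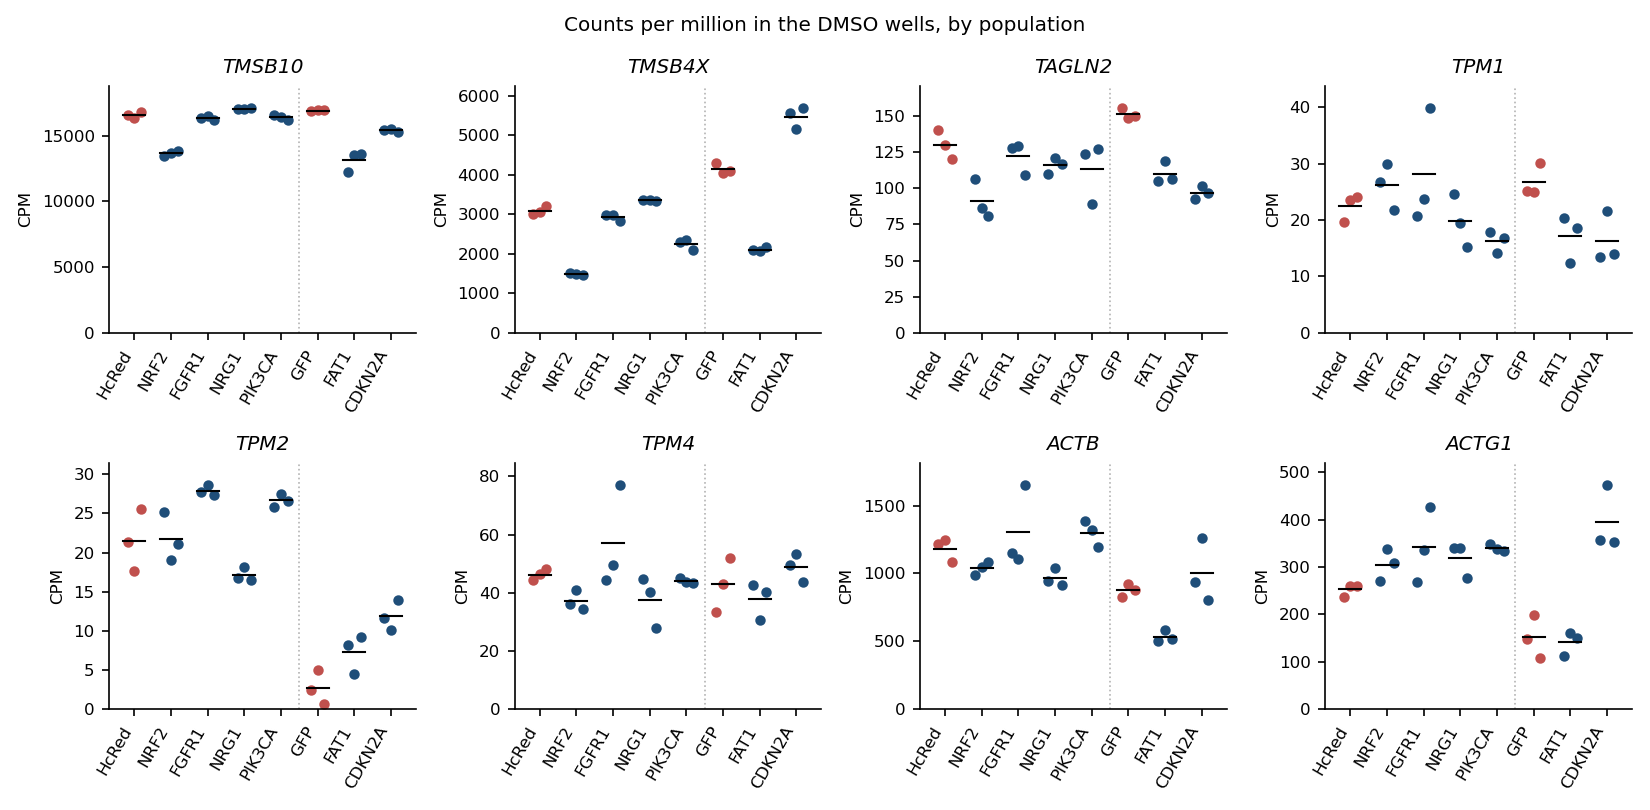
CPM of the 8 tested members under DMSO in each well (points) of the 8 populations, with the mean of the 3 wells as a black bar, control populations in red and a dotted line between the populations compared with HcRed and those compared with GFP. TMSB4X spreads from 1473 CPM in NRF2 to 5675 CPM in CDKN2A cells with little scatter within a population, TPM2 is lowest in GFP cells, and the wells of TPM1 and TPM4 overlap across most populations.

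TPM2, the beta-tropomyosin of muscle and stress fibres, differed most between populations as a ratio. Under DMSO its wells were at 2.52, 4.98 and 0.733 CPM in GFP cells, a total of 10 counts, and at 21.4, 17.6 and 25.6 CPM in HcRed cells. FAT1 cells were at 8.25, 4.53 and 9.26 CPM and CDKN2A cells at 11.7, 10.1 and 14.0 CPM, between the controls. NRG1 cells were at 16.8, 18.2 and 16.5 CPM, NRF2 cells at 25.2, 19.1 and 21.1 CPM, PIK3CA cells at 25.8, 27.5 and 26.6 CPM and FGFR1 cells at 27.7, 28.6 and 27.3 CPM. GFP, FAT1 and CDKN2A cells, the CRISPR set, thus lay below all 5 populations of the overexpression set without overlap. How many of all genes split in this way was not counted, and between GFP and HcRed cells alone 1201 of 11134 tested genes were called.

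TPM2 was lower in GFP than in HcRed cells, with a log2 fold change of -3.06 (SE 0.50, limma adjusted p = 9.27e-06), and its mean in GFP cells was 0.108 to 0.127 of that in HcRed cells under DMSO, CSC and NNK, with no overlap, which held for 4.67% of all tested genes. Leaving out 1 well gave values from -3.59 (GFP DMSO replicate 2) to -2.38 (GFP DMSO replicate 3). Against GFP cells it rose in CDKN2A cells with a log2 fold change of 2.16 (SE 0.51, limma adjusted p = 0.000828), from 2.702 to 1.502 without the same wells, and in FAT1 cells with one of 1.56 (SE 0.53, adjusted p = 0.0324). Because the low level is that of the control, both knockout populations had less TPM2 than HcRed cells while having more than GFP cells. The FAT1 call was lost without GFP DMSO replicate 1 (adjusted p = 0.0615) or 3 (log2 fold change 0.91, adjusted p = 0.300) and without FAT1 DMSO replicate 1 (0.0833) or 3 (0.0854). In PIK3CA cells TPM2 was not called under DMSO, although its mean was 1.24 to 1.65 times that of HcRed cells under DMSO, CSC and NNK with every well higher, which held for 2.08% of all tested genes.

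TPM1, which codes for alpha-tropomyosin, and TPM4, a low molecular weight tropomyosin of non-muscle cells, had population means up to 1.73 and 1.53 times the lowest under DMSO. TPM1 ran from 12.5 to 39.8 CPM and TPM4 from 28.0 to 77.0 CPM over the 24 DMSO wells. In both genes every neighbour in the order of population means overlapped the next. FGFR1 DMSO replicate 3 held the highest value of both genes.

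TPM1 was at 25.2, 24.9 and 30.1 CPM in GFP cells, against 20.3, 12.5 and 18.5 CPM in FAT1 cells and 13.4, 21.6 and 14.0 CPM in CDKN2A cells, with no overlap for either. How many of all genes lay below GFP cells in both was not counted. It fell with a log2 fold change of -0.63 in FAT1 cells (SE 0.23, limma adjusted p = 0.0452) and of -0.86 in CDKN2A cells (SE 0.24, adjusted p = 0.00557). Among fits that left out 1 well, the FAT1 call held without FAT1 DMSO replicate 1 only, and edgeR and DESeq2 did not make it. Without each of the other 5 wells in turn the adjusted p was 0.0543 (GFP replicate 1), 0.0682 (GFP replicate 2), 0.195 (GFP replicate 3), 0.366 (FAT1 replicate 2, log2 fold change -0.39) and 0.0594 (FAT1 replicate 3). FAT1 cells had 0.564 to 0.640 of the GFP mean under the 4 chemicals. The CDKN2A call was lost without GFP DMSO replicate 3 (adjusted p = 0.0548) and with DESeq2 (0.0504). TPM4 was called in no population comparison.

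TAGLN2, the transgelin of epithelial and blood cells, was highest in GFP cells at 155, 149 and 150 CPM, against 140, 130 and 120 CPM in HcRed cells. It was at 105, 119 and 106 CPM in FAT1 cells, 92.6, 102 and 96.6 CPM in CDKN2A cells and 106, 86.4 and 80.9 CPM in NRF2 cells. FGFR1, NRG1 and PIK3CA cells lay between, at 109 to 129, 110 to 121 and 89.3 to 127 CPM. No well of FAT1, CDKN2A or NRF2 cells reached its control, and how many of all genes behaved so in all of them at once was not counted.

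TAGLN2 fell in CDKN2A cells with a log2 fold change of -0.76 (SE 0.14, limma adjusted p = 8.77e-06), in FAT1 cells with one of -0.40 (SE 0.11, adjusted p = 0.00459) and in NRF2 cells with one of -0.43 (SE 0.11, adjusted p = 0.0080). It was called higher in none of the 10 comparisons. Against HcRed cells GFP cells had a value of 0.27 (adjusted p = 0.0679) under DMSO and of 0.38 (adjusted p = 3.91e-06) in a fit over all chemicals, with a mean 1.16 to 1.47 times that of HcRed cells and no overlap under DMSO, CSC and NNK, which held for 4.07% of all tested genes. The NRF2 call was lost without HcRed DMSO replicate 1 (adjusted p = 0.0713), NRF2 DMSO replicate 2 (0.0785) or NRF2 DMSO replicate 3 (0.0899).

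The smooth muscle members were close to undetected. TAGLN reached at most 3 counts in any well, and its test in NRF2 against HcRed cells gave a log2 fold change of 1.69 (SE 0.95, limma adjusted p = 0.408). MYL9 had too few counts for a test. The genes that share their expression in smooth muscle were also low. Over the 82 wells there were 166 counts of ACTA2, 147 of SYNPO2, 132 of SMTN, 15 of MYH11, 3 of ACTG2 and 1 of CNN1. SMTN was called higher in CDKN2A than in GFP cells (log2 fold change 2.57, limma adjusted p = 0.0248). It was called lower in GFP than in HcRed cells (-2.86, limma adjusted p = 0.0236). Its means there were 2.39, 0 and 2.61 CPM in CDKN2A, GFP and HcRed cells. Of all tested genes, 2070 of 11575 and 1201 of 11134 were called in these comparisons.

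ACTB and ACTG1, the cytoplasmic actins, did not move in step. ACTB under DMSO was at 503, 587 and 518 CPM in FAT1 cells, below every other well, and at 830, 925 and 879 CPM in GFP cells. It was at 1216, 1243 and 1082 CPM in HcRed cells, 1387, 1320 and 1196 CPM in PIK3CA cells and 1148, 1106 and 1652 CPM in FGFR1 cells. NRF2 cells were at 992 to 1081 CPM, NRG1 cells at 918 to 1041 CPM and CDKN2A cells at 802 to 1263 CPM. HcRed, PIK3CA and FGFR1 cells overlapped one another, and CDKN2A cells overlapped GFP cells.

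ACTB fell in FAT1 cells with a log2 fold change of -0.65 against GFP cells (SE 0.063, limma adjusted p = 4.20e-15), and the ratio of means was 0.611 to 0.762 under the 4 chemicals with no overlap. GFP cells in turn were below HcRed cells, with a log2 fold change of -0.38 (SE 0.047, limma adjusted p = 3.97e-08) and a ratio of 0.744 to 0.845 under 3 chemicals. ACTB fell in NRG1 cells with one of -0.21 (SE 0.044, adjusted p = 0.000907) and rose in PIK3CA cells with one of 0.21 (SE 0.048, adjusted p = 0.00217). The PIK3CA call was lost without PIK3CA DMSO replicate 1 (adjusted p = 0.080). The NRG1 call was lost in a fit over all chemicals (-0.06, adjusted p = 0.970), and under NNK the wells of NRG1 and HcRed cells overlapped, with a ratio of 1.26. Both values include NRG1 NNK replicate 2, the well that stood apart, where ACTB was far higher than in the other wells of its group.

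ACTG1 was at 238, 261 and 259 CPM in HcRed cells under DMSO, below every well of the other 4 overexpression-set populations. How many of all genes did so was not counted. PIK3CA cells were at 349, 338 and 333 CPM, NRG1 cells at 341, 341 and 276 CPM, NRF2 cells at 270, 337 and 308 CPM and FGFR1 cells at 268, 336 and 426 CPM. GFP cells were at 148, 199 and 109 CPM, FAT1 cells at 112, 162 and 150 CPM and CDKN2A cells at 357, 473 and 353 CPM. CDKN2A cells thus lay far above their control and FAT1 cells within its range.

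ACTG1 rose in CDKN2A cells with a log2 fold change of 1.30 (SE 0.13, limma adjusted p = 4.80e-14), in PIK3CA cells with one of 0.49 (SE 0.077, adjusted p = 1.82e-06), in NRG1 cells with one of 0.40 (SE 0.076, adjusted p = 0.00013) and in NRF2 cells with one of 0.36 (SE 0.078, adjusted p = 0.000745). In FGFR1 cells the value was 0.40 (SE 0.12, adjusted p = 0.0522), which passed without FGFR1 DMSO replicate 1 (adjusted p = 0.0131) or 3 (0.0260). GFP cells were below HcRed cells, with a log2 fold change of -0.74 (SE 0.11, limma adjusted p = 1.55e-06). In FAT1 against GFP cells the DMSO value was -0.01 (adjusted p = 0.975), while a fit over all chemicals gave 0.39 (adjusted p = 1.79e-05) and the ratio of means ran from 0.931 to 1.51.

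Within a well, ACTB was 6.11 ± 1.75 times ACTG1 in GFP cells under DMSO (SD, n = 3) and 4.68 ± 0.48 times in HcRed cells, the highest ratios. It was 3.86 ± 0.57 in FAT1, 3.83 ± 0.20 in PIK3CA, 3.82 ± 0.50 in FGFR1 and 3.43 ± 0.29 in NRF2 cells. NRG1 cells were at 3.05 ± 0.27 and CDKN2A cells at 2.52 ± 0.22. Every engineered population had a lower mean ratio than its control.

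**Figure D3:**
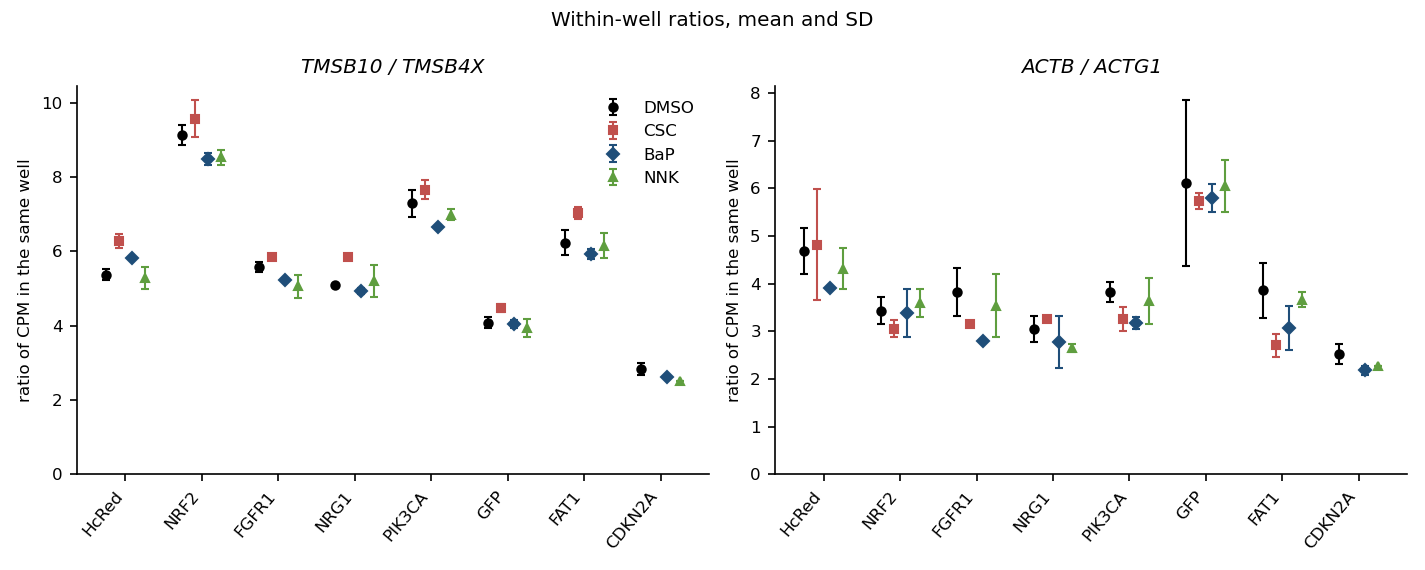
Ratio within a well of TMSB10 to TMSB4X and of ACTB to ACTG1 (vertical axes), as mean and SD over the wells of each population and chemical, with a single well shown without a bar. The thymosin ratio differs mainly between populations, from 2.83 in CDKN2A to 9.13 in NRF2 cells under DMSO, and the actin ratio is highest in GFP cells.

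Among the chemicals, CSC called the most members, in fits that covered different populations. The CSC fit held HcRed and not NRG1 cells, the BaP fit NRG1 and not HcRed cells, and the NNK fit 7 populations. TMSB4X fell under CSC with a log2 fold change of -0.20 (SE 0.022, limma adjusted p = 3.85e-11). Its 3 CSC wells were at 2529, 2555 and 2542 CPM in HcRed, 3593, 3632 and 3451 CPM in GFP, 1646, 1856 and 1740 CPM in FAT1 and 1425, 1344 and 1407 CPM in NRF2 cells, all below the DMSO wells of the same population. In PIK3CA cells, at 2139, 2063 and 2015 CPM, 1 well overlapped. The lower level held in 4 of 5 populations without overlap, as it did in at least 4 for 0.678% of all tested genes, and the ratio to DMSO was 0.823 to 0.931.

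TMSB10 fell under CSC with a log2 fold change of -0.06 (SE 0.015, limma adjusted p = 0.00935), at 0.937 to 0.976 of DMSO, so the ratio of TMSB10 to TMSB4X was higher under CSC, in each of the 5 populations by its mean, at 6.29 in HcRed, 9.58 in NRF2, 7.67 in PIK3CA, 4.49 in GFP and 7.04 in FAT1 cells. TPM1 fell with one of -0.47 (SE 0.12, adjusted p = 0.00586), and its mean was below DMSO in all 5 populations, at 0.629 to 0.942. TPM4 rose with one of 0.27 (SE 0.076, adjusted p = 0.0151), and its mean was above DMSO in all 5, at 1.13 to 1.30, with no overlap in FAT1 cells alone. These tropomyosins, which code for proteins of the same kind, thus moved in opposite directions. The TPM4 call was lost without FAT1 DMSO replicate 2 (adjusted p = 0.0648), and the TMSB10 call with edgeR and with DESeq2.

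TAGLN2 fell under CSC with a log2 fold change of -0.18 (SE 0.054, limma adjusted p = 0.0276). Its call was lost when 1 of 7 wells was left out, at adjusted p-values of 0.0503 (HcRed DMSO replicate 1), 0.0550 (PIK3CA DMSO replicate 1), 0.0577 (PIK3CA DMSO replicate 3), 0.0622 (NRF2 DMSO replicate 1), 0.0589 (PIK3CA CSC replicate 1), 0.0542 (NRF2 CSC replicate 1) and 0.0601 (FAT1 CSC replicate 1). ACTG1 and TPM2 were not called. ACTG1 ran from 0.768 of DMSO in HcRed cells to 1.42 in FAT1 cells, where its CSC wells were at 194, 197 and 210 CPM.

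ACTB was called under each of the 3 chemicals, the only member of which this was so, though how many of all genes were called under all 3 was not counted. Its log2 fold change was -0.16 for CSC (SE 0.030, limma adjusted p = 8.49e-05), -0.30 for BaP (SE 0.030, adjusted p = 5.33e-12) and -0.24 for NNK (SE 0.046, adjusted p = 0.000102). The chemicals share the DMSO wells. Its call under BaP was the only one among the members.

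Under BaP the ACTB wells were at 602, 548 and 652 CPM in GFP, 754, 867 and 853 CPM in NRF2, 1050, 1057 and 986 CPM in PIK3CA and 466, 461 and 446 CPM in FAT1 cells, below all DMSO wells of each. In NRG1 cells they were at 924, 820 and 771 CPM and overlapped DMSO. The ratios to DMSO were 0.684 in GFP, 0.792 in NRF2, 0.793 in PIK3CA, 0.853 in FAT1 and 0.866 in NRG1 cells. Of all tested genes 1.22% were lower without overlap in at least 4 of the 5 populations. Under NNK the HcRed wells were at 772, 831 and 855 CPM, and 5 of 7 populations lay below DMSO without overlap, at 0.694 to 0.817, as 1.17% of all tested genes did in at least 5. FAT1 cells were at 0.900, and NRG1 cells, with replicate 2, the well that stood apart, included, were at 1.07. Under CSC the HcRed wells were at 856, 885 and 957 CPM, or 0.762 of DMSO, and GFP cells were at 0.865 without overlap, while FAT1 cells were at 1.01.

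**Figure D4:**
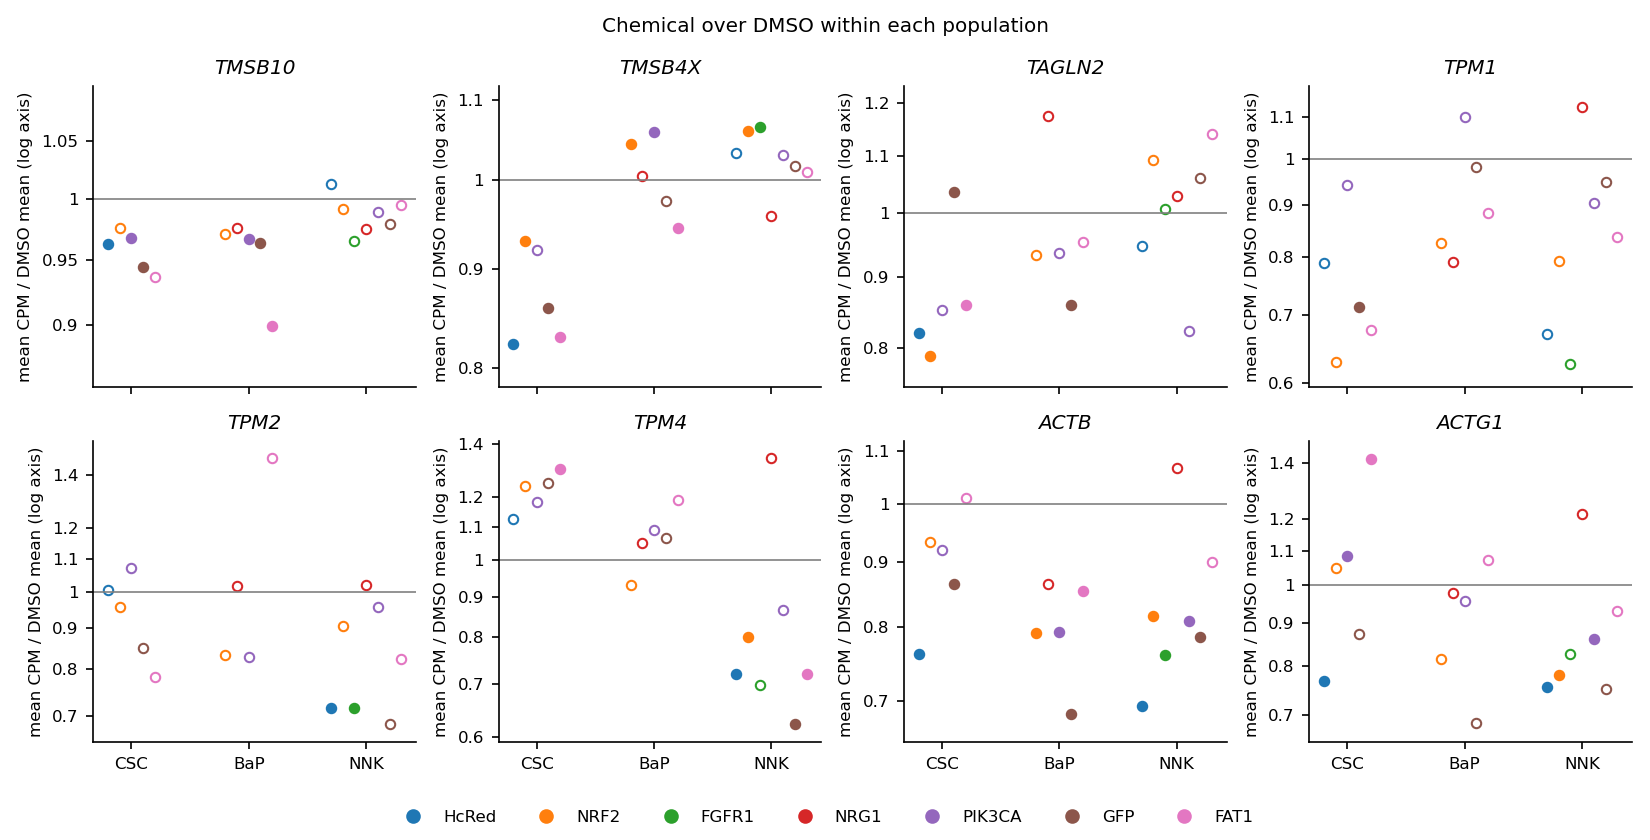
Ratio of mean CPM under each chemical to mean CPM under DMSO (log axis) for the tested members, 1 symbol per population, filled where the 3 wells do not overlap the 3 DMSO wells and left out for TPM2 in GFP cells under BaP, which had 2 counts. ACTB lies below 1 in every population under BaP and in 6 of 7 under NNK, TMSB4X lies below 1 in all 5 populations under CSC, and TPM4 lies above 1 under CSC and mostly below 1 under NNK.

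NNK called ACTB and TPM4. TPM4 had a log2 fold change of -0.25 (SE 0.082, limma adjusted p = 0.048), the reverse of its direction under CSC. Its NNK wells were at 42.8, 33.9 and 23.3 CPM in HcRed and 24.5, 25.7 and 30.0 CPM in GFP cells, and the mean was 0.622 to 0.866 of DMSO in 6 populations and 1.34 in NRG1 cells. Leaving out 1 well ended the call for 36 of the 42 wells, with adjusted p-values from 0.00365 to 0.127. It held without FGFR1 DMSO replicate 1, NRG1 DMSO replicate 2 or 3, FGFR1 NNK replicate 1, or NRG1 NNK replicate 1 or 2.

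NRG1 NNK replicate 2, the well that stood apart, differed from replicates 1 and 3 in these genes too. It held 1667 CPM of ACTB against 782 and 651, 615 CPM of ACTG1 against 306 and 245, 75.9 CPM of TPM4 against 39.3 and 36.4 and 38.0 CPM of TPM1 against 16.3 and 12.4. Its thymosins were lower, with 2825 CPM of TMSB4X against 3386 and 3426 and 16080 CPM of TMSB10 against 17043 and 16791. Without it, limma called 5 members under NNK in place of 2. ACTB stood at -0.28 (adjusted p = 3.35e-11), TPM4 at -0.29 (0.00365) and ACTG1 at -0.19 (SE 0.050, 0.00248), while TMSB10 at 0.07 (SE 0.016, 0.0010) and TMSB4X at 0.12 (SE 0.019, 1.12e-06) were higher.

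Whether a chemical acted differently in an engineered population than in its control was tested in 9 fits of 12 wells. None of the 74 member tests was called by limma, where few of all tested genes were. With CSC the shares of genes called were 0.231% for NRF2, 0% for PIK3CA and 0% for FAT1 cells, and with BaP 0.054% for FAT1 cells. With NNK they were 0.0269% for FGFR1, 0.018% for NRF2 and for FAT1 cells, 0.00907% for PIK3CA and 0% for NRG1 cells. At an unadjusted p under 0.05 there were 18, or 24.3%, against 5.86% of all gene tests in these fits and 6.5% for genes with a mean count of at least 20. The smallest adjusted p was 0.129. ACTB had 6 of the 18, with values above 0 in all 9 fits, from 0.16 to 0.30 on the log2 scale. ACTG1, with 4 of the 18, and TPM4, with 1, were also above 0 in all 9, from 0.02 to 0.65 and from 0.06 to 0.70. The highest values of ACTB and TPM4, and the only TPM4 test among the 18, came from NRG1 cells with NNK. That fit holds NRG1 NNK replicate 2, the well that stood apart. The 18 also include TAGLN in NRF2 cells with NNK, where no well held more than 3 counts. TPM2 in FAT1 cells with BaP is among them too, where no GFP BaP well held more than 1 count. TMSB10 had 4 of the 18 and was above 0 in 2 of 9 fits. A value above 0 means that the chemical's log2 fold change was higher in the engineered population than in its control. The fits share control wells and DMSO wells. edgeR and DESeq2 called 0 as well, with 16 and 10 at an unadjusted p under 0.05. A p that misses the threshold does not show that the populations responded alike.

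The other genes of the actin cytoskeleton were described from lists by role. Of 20 genes for actin monomer binding and filament turnover, 8 fell and 0 rose in FAT1 cells, 12 fell and 1 rose in CDKN2A cells, and 8 rose and 0 fell in GFP against HcRed cells. The shares called were 40%, 65% and 40%, where among all genes with a mean count of at least 20 they were 29.5%, 34.6% and 24.3%. Of all tested genes 7.62% fell in FAT1 and 9.28% in CDKN2A cells, and 5.93% rose in GFP cells. These 3 comparisons share the GFP wells. ARPC2, a subunit of the branching Arp2/3 complex, had log2 fold changes of -0.77 in FAT1 and -0.84 in CDKN2A cells, and GSN, which codes for the severing protein gelsolin, had one of -2.12 in CDKN2A cells. In NRF2 cells 1 rose and 1 fell, in PIK3CA cells 2 fell, and 0 were called in FGFR1 and NRG1 cells. BaP called 2 higher and 5 lower, NNK 1 higher and 2 lower, and CSC 0. Of all tested genes, 1030 of 11306 were called under BaP, 819 of 11349 under NNK and 662 of 11371 under CSC. In NRF2 cells 552 of 11217 were called and in PIK3CA cells 603 of 11231. Among well-counted genes the shares, given earlier, were larger.

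Of 12 genes for non-muscle myosin II and its regulators, 3 fell and 0 rose in FAT1 cells, 4 fell and 1 rose in CDKN2A cells, and 4 rose and 1 fell in GFP against HcRed cells. These shares of 25%, 41.7% and 41.7% stand beside the same 29.5%, 34.6% and 24.3% of well-counted genes. MYL6, the essential light chain, had log2 fold changes of 0.25 in NRF2 cells (limma adjusted p = 1.77e-13), -0.79 in CDKN2A cells (9.05e-15) and 0.14 under BaP (3.49e-09). MYL12B, a regulatory light chain of epithelial cells, was higher in GFP than in HcRed cells by 0.54 (2.86e-18). PPP1CB, the catalytic subunit of myosin phosphatase, fell under each chemical, at -0.30 for CSC, -0.52 for BaP (4.18e-12) and -0.50 for NNK (2.49e-11). Like ACTB, it was called lower under all 3, and how many of all genes were was not counted.

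Of 16 targets of serum response factor and YAP outside the members, of which 13 to 15 were tested, 5 rose and 2 fell in CDKN2A cells and 0 rose and 5 fell in GFP against HcRed cells. Of all tested genes 8.6% rose and 9.28% fell in CDKN2A cells, and 5.93% rose and 4.86% fell in GFP cells. THBS1, thrombospondin 1, had log2 fold changes of 2.09 and -1.32 in those comparisons. In NRF2 cells 3 fell, in FAT1 and PIK3CA cells 1 rose, and in FGFR1 and NRG1 cells 0 were called. CSC called 2 higher, BaP 2 lower and NNK 1 higher and 2 lower. The numbers of all tested genes called in NRF2 and PIK3CA cells and under the chemicals are given with the filament turnover list. Of 20 other actin bundling and cross-linking genes, 1 rose and 3 fell in FAT1 cells, with PLS3, which codes for plastin 3, at -0.87, and 2 rose and 5 fell in CDKN2A cells. Of all tested genes, 1572 of 11142 were called in FAT1 and 2070 of 11575 in CDKN2A cells. Beside the well-counted genes above, the list's share was smaller in FAT1 and similar in CDKN2A cells. Genes of this list were also called in NRF2, NRG1, PIK3CA and GFP against HcRed cells and under each chemical.

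Markers of other cell states moved with some of these comparisons. The summed level of 14 fibroblast and mesenchymal markers under DMSO was 145 to 195 CPM in PIK3CA, 151 to 158 CPM in NRG1 and 122 to 166 CPM in FGFR1 cells, against 65.9 to 83.1 CPM in HcRed cells. It was 29.1 to 38.7 CPM in NRF2, 30.5 to 40.1 CPM in FAT1, 29.9 to 43.9 CPM in CDKN2A and 19.1 to 26.9 CPM in GFP cells. FN1 and VIM carried it, at means of 36.3 and 27.2 CPM, while COL1A2, COL3A1, PDGFRA and PDGFRB had 1 count each in 82 wells. DCN, which codes for the matrix protein decorin, had 421 counts, with a mean of 3.98 CPM and a highest well of 15.8 CPM, and COL1A1 had 77. The part of FN1 and VIM expression in the TPM2 and ACTG1 differences was not tested. The summed epithelial markers, basal and other, under DMSO were at 1858 to 2046 CPM in HcRed, 1550 to 1826 in NRF2, 1441 to 1714 in FGFR1, 1160 to 1299 in NRG1 and 1004 to 1115 in PIK3CA cells, and at 1365 to 1519 in GFP, 1106 to 1221 in FAT1 and 1157 to 1594 in CDKN2A cells. Of these 14 markers 7 were called lower in NRG1 and 7 in PIK3CA cells, where 3 were called higher. Of all tested genes, 351 of 11328 were called in NRG1 and 603 of 11231 in PIK3CA cells. The lower sum was not particular to these populations. It lay below that of HcRed cells without overlap in every population compared with them, and in FAT1 cells below that of GFP cells. Marker calls in other comparisons are not given here, and the markers' part in the members' differences was not tested. In these bulk wells, fewer cells expressing a gene and less RNA per cell cannot be told apart.

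Across the 25 groups of 3 wells, the mean log2 levels of TPM2 and ACTG1 varied together with a Pearson r of 0.86, those of ACTB and ACTG1 with 0.76 and those of TPM2 and ACTB with 0.69. TMSB4X and TAGLN2 had an r of 0.64 and TMSB10 and TMSB4X one of 0.56, while TAGLN2 ran against ACTG1 at -0.62 and against TPM2 at -0.58. The groups share populations, chemicals and plate rows, so these values describe the groups and carry no test. Over the 8 populations under DMSO alone, TMSB4X and TAGLN2 had an r of 0.19.

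The genes most like each member over the same 25 groups, out of 3987, were then listed. Among those most like TPM2 were SNRNP25 (r = 0.94) and C16orf62 (0.93), both on chromosome 16. TMSB4X was most like TMEM14B (0.88), KIAA1586 (0.87) and ECHDC1 (0.82), all on chromosome 6, and TMSB10 most like NUDT5 (0.85), HSPA14 (0.85) and GDI2 (0.84), all on chromosome 10. ACTG1 was most like GRSF1 (0.90), ABCE1 (0.90) and LSM6 (0.89), all on chromosome 4. None of these 4 members lies on the chromosome of the genes named for it.

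For the other members the 3 nearest genes were on at least 2 chromosomes each. ACTB was most like TUBA1C (0.92), a tubulin gene, SEPT11 (0.90), a septin gene, and FRG1 (0.88), the last 2 of them on chromosome 4, as were those named for ACTG1. TAGLN2 was most like ECI2 (0.85), MYL12B (0.83) and MFAP5 (0.82), TPM1 most like CFDP1 (0.78), PDCD4 (0.74) and PRC1 (0.74), and TPM4 most like CTSB (0.72), UBA2 (0.68) and CDC25B (0.68). PRC1 is on the same chromosome as TPM1, and UBA2 on that of TPM4. Of the named neighbours of ACTB and TAGLN2, TUBA1C, SEPT11 and MYL12B code for cytoskeletal proteins.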

How the data were processed

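Expression was measured by 3′ digital gene expression in 95 wells of AALE cells. The deposited values are raw UMI counts per gene and well. According to the methods, quantified counts were what the authors received, with reads aligned by BWA aln 0.7.10 to RefSeq transcripts of hg19 and UMIs of 10 bases counted once per gene. The tools and build come from the submitters' processing notes. Well totals, which set the precision, ran from 692446 to 1895735.

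Groups came from sample titles. The labels do not explain the 2-digit replicate numbers of 13 wells in 6 groups, so the fits used the other 82. The study calls the wells biological replicates.

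Counts were analysed in R 4.3.3 with limma 3.58.1, voom weights and TMM factors from edgeR 4.0.16, for genes whose mean count exceeded 1. Two-sided p-values were adjusted by Benjamini and Hochberg's method over all genes tested, with a threshold of 0.05. Very small p-values rest on the variance that limma shares between genes. Population fits used 6 DMSO wells, chemical fits 30, 30 and 42 wells with population as covariate. The alternatives were other scalings, edgeR, DESeq2 1.42.0, no low-count filter, the 10000 most variable genes, a replicate block, a single fit, all chemicals or wells, and leaving out each well. Scripts were tested on simulated counts with 200 changed genes.

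All 10 members are named throughout, as are up to 3 genes with the smallest adjusted p from each related list in a comparison, of which a selection is printed, and the 3 genes most like each member by Pearson r of mean log2 CPM (prior count 2) among genes with a mean count of at least 20. A gene that this rule names is not reported here. Members and lists were chosen with earlier results of these data known. Positions are from GENCODE 44 lifted to hg19, and promoters from RefSeq.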

Additional observations from a re-analysis of the deposited data

Results flagged for a closer look

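Some members had every well higher than DMSO in 1 population and every well lower in another under the same chemical. For TAGLN2 under CSC the ratio of mean CPM to DMSO was 1.04 in GFP cells against 0.82 in HcRed, 0.79 in NRF2 and 0.86 in FAT1 cells, and in GFP cells the lowest CSC well, at 155.28 CPM, was just above the highest DMSO well, at 155.27 CPM. For ACTG1 under CSC it was 1.08 in PIK3CA and 1.42 in FAT1 cells against 0.768 in HcRed cells. For TMSB4X under BaP it was 1.04 in NRF2 and 1.06 in PIK3CA cells against 0.945 in FAT1 cells. Such opposite cases were found for 3.78% of all tested genes under CSC and 4.18% under BaP. For FAT1 against GFP cells and for PIK3CA against HcRed cells under CSC the limma interaction called no member, and the other differences were not tested.

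For the wells with 2-digit replicate numbers, which no comparison used, 22 pairs of a member and a group had a call for that chemical, and in 14 the wells lay outside the 3 DMSO wells of their population in the direction of the call. Of all genes, 5.46% to 15.2% lay wholly above and 10.8% to 26.7% wholly below the DMSO wells in these 6 groups. Under CSC the ratio of mean CPM to DMSO in FGFR1 cells was 0.918 for TMSB10, 0.864 for TMSB4X, 0.753 for TAGLN2 and 0.759 for ACTB. In NRG1 cells it was 0.954 for TMSB10, 0.832 for TMSB4X and 0.905 for ACTB, and in CDKN2A cells it was 0.971 for TMSB10, 0.61 for TPM1 and 0.701 for ACTB. Under BaP ACTB was at 0.708 in HcRed and 0.678 in FGFR1 cells. Under NNK CDKN2A cells were at 0.596 for TPM4 and 0.614 for ACTB. Of the other 8, TAGLN2 under CSC in CDKN2A cells lay wholly on the opposite side, at 1.19. The ratios for TPM4 under CSC were 1.02 in FGFR1, 1.08 in NRG1 and 0.990 in CDKN2A cells, with overlap. Under CSC the others that overlapped were TMSB4X in CDKN2A cells (0.954), TAGLN2 in NRG1 cells (0.912) and TPM1 in FGFR1 (0.653) and NRG1 cells (0.908). Whether these wells are separate cultures is not given in the sources used here.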

How the results depend on the processing

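Of 1845 values of single members under alternatives, 1687 stayed on the same side of the threshold in the same direction, and 33 changed sign without a call on either side. Of 303 counts of members called, 238 stayed within 1.5 times. A single fit over all groups called 1 member in NRF2, 0 in NRG1 and 2 in PIK3CA cells, against 4 each. For FGFR1 cells, with 0, library totals, edgeR, the variable-gene filter and all chemicals each gave 1. For NRG1 cells the variable-gene filter gave 2 and all chemicals 1. That fit over all chemicals includes NRG1 NNK replicate 2, the well that stood apart. For BaP, with 1, library totals gave 2 and all wells 3. For NNK, with 2, median-ratio size factors, library totals, DESeq2, no low-count filter and the replicate block each gave 1. For the interactions, with 0, the replicate block gave 2. The cause was not tested.

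Leaving out 1 well gave 3 to 4 calls in NRF2, 0 to 2 in FGFR1, 4 in NRG1, 2 to 4 in PIK3CA, 4 to 5 in FAT1, 4 to 6 in CDKN2A and 5 in GFP against HcRed cells, 5 to 6 under CSC, 1 to 2 under BaP, 1 to 5 under NNK and 0 to 1 in the interactions. The BaP count rose without FAT1 DMSO replicate 1 or NRG1 BaP replicate 2, each by TMSB10 (adjusted p = 0.0289 and 0.0277). An interaction was called without HcRed CSC replicate 2, GFP DMSO replicate 3, FAT1 DMSO replicate 1, FAT1 BaP replicate 3, NRF2 NNK replicate 3 or PIK3CA NNK replicate 2.

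Values that turned, with a call on at least 1 side, were TMSB10 in FGFR1 cells without FGFR1 DMSO replicate 3 (0.0236, where leaving out 1 well gave -0.0812 to 0.0236), in NRG1 cells over all chemicals (-0.0112) and in PIK3CA cells with library totals (-0.0135), and ACTG1 in FAT1 cells over all chemicals (0.39). Besides the calls lost that are given with the results, the single fit over all groups lost TMSB10, TAGLN2 and ACTG1 in NRF2 cells, ACTB and TMSB10 in PIK3CA cells, TPM1 and TPM2 in FAT1 cells, TMSB10 in GFP against HcRed cells, and TMSB10 and TPM4 under CSC. Library totals moved the median of all genes to -0.104 in NRF2, -0.109 in NRG1 and 0.132 in CDKN2A cells.

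The shared replicate numbers did not pair the wells. Of 72 correlations between deviations of wells with the same number, in 24 pairs of groups, the values ran from -0.141 to 0.134, and 0 pairs of groups had all above 0.1. With the replicate block the calls for TPM1 (adjusted p = 0.0620) and TPM2 (0.0612) in FAT1 cells and TPM4 under NNK (0.0533) were lost, and 4 members were called in FAT1 cells.

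Depth limits TAGLN and MYL9, for which no difference was detectable, and TPM2 in GFP cells, which rests on 10 counts.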

Other observations

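Some pairs of members also varied together between wells of the same group, a pattern chosen after the values were seen. In 16 of 25 groups of 3 wells the well with the highest ACTB also had the highest ACTG1, where the median over 3986 genes paired with ACTB was 9. TPM1 and TPM4 shared their highest well in 14 groups, where the median for TPM1 was 9, and TPM4 shared it with ACTB in 11. TMSB4X and TPM1 shared it in 3 groups and TMSB4X and ACTB in 5, below the median of 8. Other pairs below their median were TAGLN2 with TPM1 (5, median 8) and with TPM4 (6, median 8), and TPM1 with TPM2 (6, median 9). TPM2 with TPM4 and TPM2 with ACTB were at 6 each (median 8), and TMSB4X with TPM4 (7, median 8) and TPM1 with ACTG1 (8, median 9) were also below. Among other pairs above their median were TAGLN2 with ACTB and TPM2 with ACTG1, at 11 each (median 8). FGFR1 DMSO replicate 3 and CDKN2A DMSO replicate 2 were each the highest of their 3 wells in ACTB, ACTG1, TPM1 and TPM4 and the lowest in TMSB4X, as NRG1 NNK replicate 2 was. Over all genes too, NRG1 NNK replicate 2 stood apart from its group, and the other 2 wells lay toward the top of the range of pairs. These are counts with no test, and genes of a well share its library.

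Genes that share sequence with the members had few counts. By the paper, a UMI was counted where it aligned to a single gene, so these counts cannot give the level of nearly identical copies. Of 14 such genes looked up, 10 are listed. POTEE, POTEF, POTEI, POTEJ, POTEKP and ACTC1 were at 0 in the 82 wells, ACTA1 had 3 counts, ACTBL2 57, TMSB15A 103 and TMSB15B 261.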
